A study of Mus musculus with 6 samples.

Results

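The transcripts of 10 surface antigens by which mouse mesenchymal stromal cells (MSCs) are recognised were followed across 6 RNA-seq libraries. The genes are Cd44, Nt5e, Eng, Thy1, Ly6a, Alcam, Mcam, Vcam1, Cd9 and Cd34, chosen by name, and they are 10 of the 23420 genes in the count table. All 10 were in the table, and 9 of them passed the filter on low counts that left 11974 genes for testing. Thy1 did not pass. The MSCs came from bone marrow of young adult female C57BL/6 mice and were grown in serum-containing medium. The 3 libraries labelled Ctl MSC were from cells that had received the empty AP2 retroviral construct, and the 3 labelled MSC-TPr were from cells that had received AP2 with 3 subunits of the thymoproteasome (TPr) joined by self-cleaving peptides, namely β1i from Psmb9, β2i from Psmb10 and β5t from Psmb11. Both groups were therefore transduced, and the vector also carries eGFP. The question is whether the antigens that define an MSC were transcribed alike in both groups. The labels do not say whether the 3 libraries of a group came from separate cultures, so each spread given below is a spread between libraries. Values of the 3 libraries of a group are listed in the order of their numbers 1, 2 and 3.

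MSCs have no single defining gene and are recognised by a panel of surface proteins together with the absence of blood cell markers. The panel mixes several kinds of molecule. Nt5e (CD73) is an ecto-enzyme that makes adenosine from AMP outside the cell, Eng (endoglin, CD105) is a co-receptor for ligands of the TGF-β family, and Cd44 is the main receptor for hyaluronan. Thy1 (CD90) and Ly6a (Sca-1) are small proteins held in the membrane by a lipid anchor, and Ly6a is the usual marker for enriching stromal progenitors from mouse marrow. Alcam (CD166), Mcam (CD146) and Vcam1 (CD106) are adhesion molecules of the immunoglobulin superfamily, Cd9 is a tetraspanin, and Cd34 is a sialomucin of blood progenitors and vessels that is also found on some mouse stromal cells. Levels of transcripts are given below, which are not levels of protein on the surface.

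The libraries held 16158756 to 22158887 reads counted on genes, so that 3 reads, taken as the smallest detectable amount, corresponded to 0.139 to 0.181 CPM (read counts scaled to library size by TMM; the limit covers counting error only). On the second principal component, with 28.3% of the variance of log2 CPM, the labels separated, with the controls at -48.86, -20.43 and -19.59 and the MSC-TPr libraries at 49.1, 24.21 and 15.58. On the first, however, the libraries numbered 1 stood apart from their labels. On this component, which held 58.5% of the variance, Ctl MSC 1 lay at -40.95 beside MSC-TPr 2 and 3 at -50.27 and -49.36, whereas MSC-TPr 1 lay at 40.5 beside Ctl MSC 2 and 3 at 50.85 and 49.23. A list of 15 cell division genes averaged 6.51, 3.23 and 3.18 log2 CPM among the controls, against 3.21, 6.40 and 6.43 among the MSC-TPr libraries. Of the transduced genes, Psmb11 had 1 to 6 reads in any library. Psmb9 had 3.38, 0.801 and 0.827 CPM among the controls, against 0.554, 1.24 and 1.21 CPM among the MSC-TPr libraries, and Psmb10 had 27.8, 8.81 and 8.38 CPM, against 8.97, 17.3 and 15.2 CPM. Neither was higher in every MSC-TPr library, so the transduced genes do not check the labels and each direction below is one between labels. The fold change of each member tested is given over all 6 libraries and with both libraries numbered 1 left out. Of the markers of other cells, Ptprc (CD45) had 0 to 2 reads, Itgam and Cdh5 at most 1, Pecam1 at most 4 and Epcam 0 in every library, and the 19 haematopoietic markers summed to 3.88 to 14.8 CPM, mostly Cd14. The 12 endothelial markers summed to 3.14 to 26.1 CPM, with the highest sum in MSC-TPr 1 from Vwf, and the 6 epithelial markers to 0.0552 to 1.66 CPM. Of 15 genes of collagen-producing stromal cells, 14 were tested and their sum was 9359 to 32833 CPM. None of these 14 was called by edgeR over all 6 libraries (0 had an unadjusted p under 0.05, and DESeq2 called 0), with a median log2 fold change of 0.60. Without the libraries numbered 1, 10 were called higher and 1 lower, beside 20.6% and 19.4% of all genes, with a median of 1.76. The stromal collagen gene Col1a1 reached 354 to 6916 CPM, while Lum, another stromal marker, had at most 3 reads.

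The antigens spanned several orders of magnitude when compared per length of transcript. In RPKM (CPM per kilobase of exon), Ly6a was the highest member with a mean of 238 over the 6 libraries (range 115 to 523), followed by Cd9 with 136 (59.7 to 221), Cd44 with 51.1 (20.9 to 79.1) and Eng with 41.2 (35 to 50.5). Vcam1 was intermediate with 6.16 (4.08 to 9.32). Cd34 with 1.62 (0.0911 to 5.97), Nt5e with 1.18 (0.309 to 2.35), Mcam with 1.07 (0.281 to 2.71) and Alcam with 0.792 (0.218 to 1.9) were low, and Thy1 was at 0.00336 (0 to 0.0202). The lipid-anchored Ly6a lay above 97.9% of genes with reads in every library. The upper block of Ly6a, Cd9, Cd44 and Eng was separated from Vcam1, since the lowest Eng value exceeded the highest Vcam1 value, and Alcam was likewise separated from Thy1. No other neighbouring pair in this order had separate ranges. Within libraries the order was firmer at the top, because Ly6a exceeded Cd9 and Cd9 exceeded Cd44 in 6 of 6 libraries, whereas Cd44 exceeded Eng in 3 of 6 and Cd34 exceeded Nt5e in 2 of 6. Cd44 was the third member in Ctl MSC 1, MSC-TPr 2 and MSC-TPr 3, and Eng was the third in the other 3 libraries. With the libraries numbered 1 left out, Cd34 moved from the sixth place to the ninth.

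**Figure D1:**
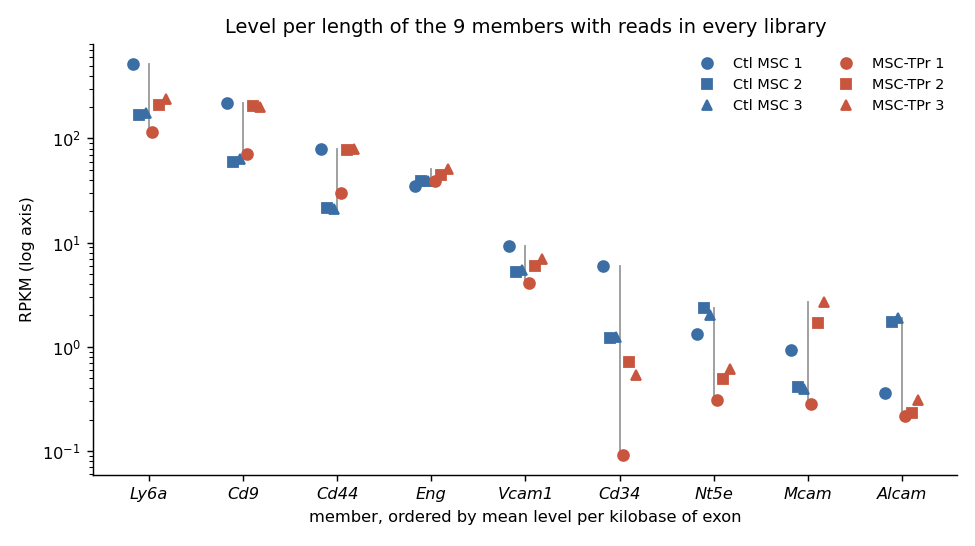
Level per length of the 9 antigens with reads in every library (RPKM, log axis), one point per library and a grey line from the lowest to the highest library. Ly6a, Cd9, Cd44 and Eng lay above 20 RPKM in every library and Vcam1 below 10, and Cd34 spread the furthest, from 0.0911 RPKM in MSC-TPr 1 to 5.97 in Ctl MSC 1.

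The 9 genes tested did not shift in one direction between the labels. Over all 6 libraries, edgeR called 0 of the 9 members tested (adjusted p under 0.05 together with a change of 0.5 or more on the log2 scale), where 0.426% of all genes tested were called. In these bulk libraries, fewer cells carrying an antigen and less RNA per cell cannot be told apart. Nt5e, Alcam and Cd34 had an unadjusted p under 0.05 (edgeR), as had 1801 of the 11974 genes tested. In these 3 members the 3 MSC-TPr libraries all lay below the 3 Ctl MSC libraries. Groups without overlap and lower in MSC-TPr were common in these data, at 12.1% of all genes tested, and 22.6% were without overlap in either direction. DESeq2 called these same 3 genes, all lower, where it called 3.24% of genes lower. With both libraries numbered 1 left out, edgeR called 6 of 9 members, namely Cd44, Cd9 and Mcam higher and Nt5e, Alcam and Cd34 lower in MSC-TPr. That fit called 40% of all genes (20.6% higher and 19.4% lower), on 2 libraries per group. The median log2 fold change of the 9 members was -0.23 over all 6 libraries and 0.28 without the libraries numbered 1, beside 0.01 and -0.00 for all genes tested.

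**Figure D2:**
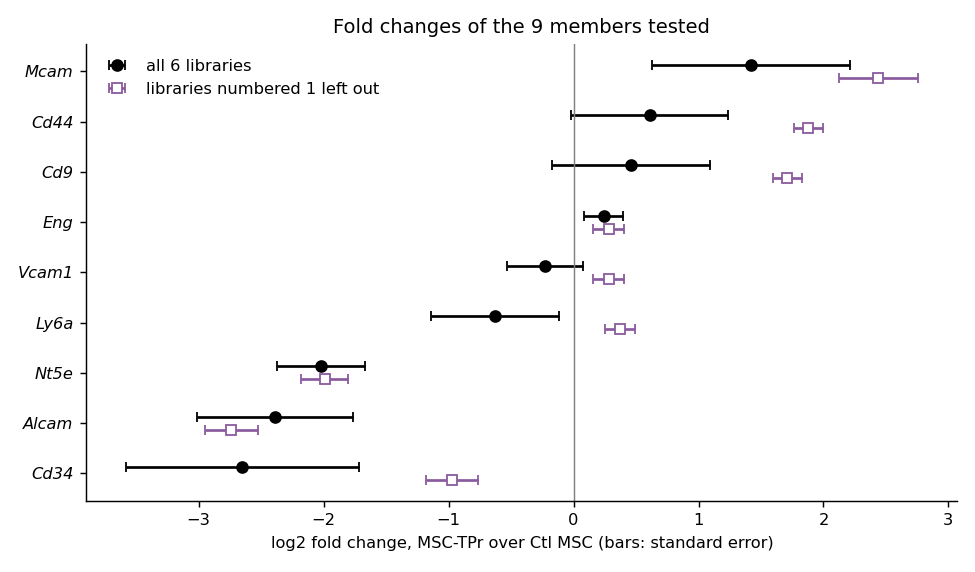
Log2 fold change of the 9 antigens tested (MSC-TPr over Ctl MSC, bars give the standard error) over all 6 libraries (filled circles) and with both libraries numbered 1 left out (open squares). Nt5e, Alcam and Cd34 were negative in both fits, Mcam, Cd44, Cd9 and Eng were positive in both, and Ly6a and Vcam1 lay on opposite sides of 0.

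**Figure D3:**
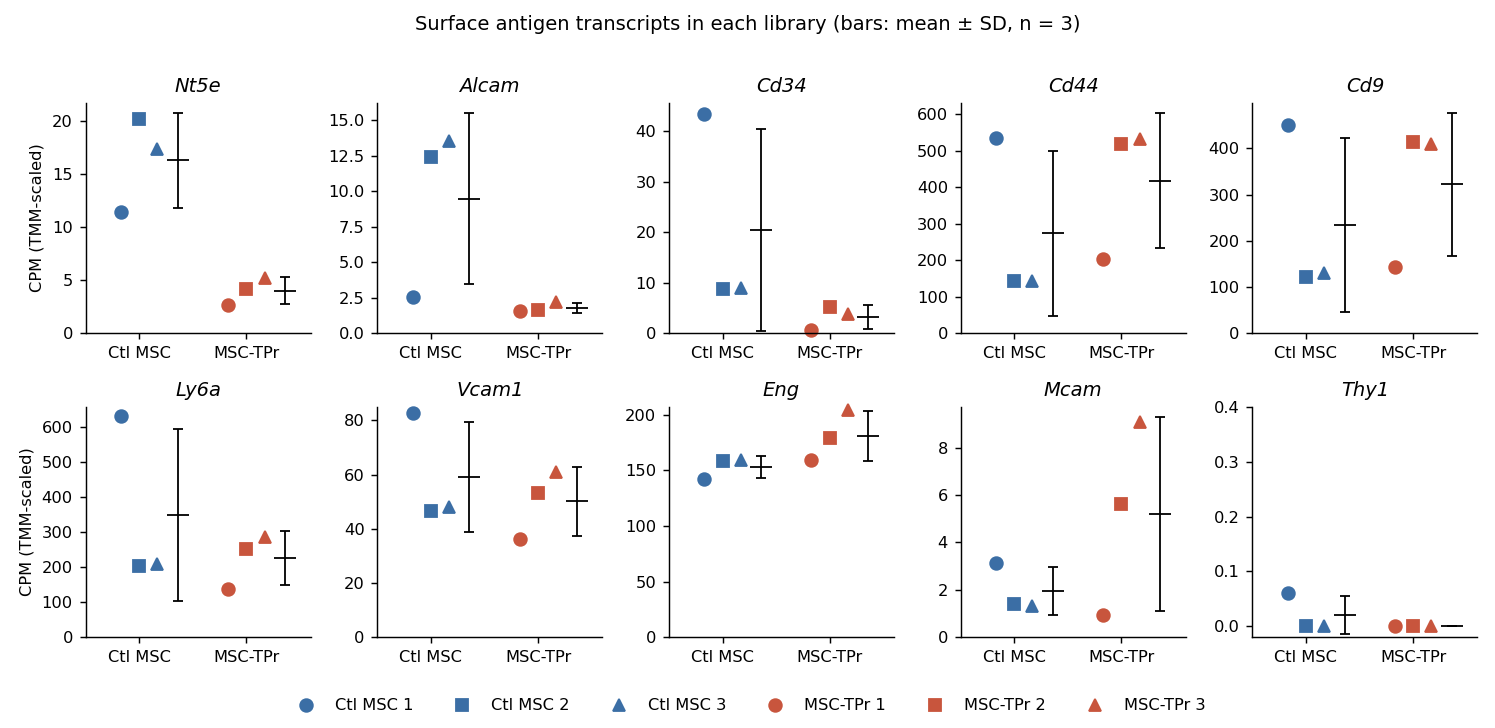
Level of each of the 10 antigens in every library (TMM-scaled CPM, linear axes that differ between panels), with the mean ± SD of the 3 libraries of each group beside the points. Every MSC-TPr point of Nt5e, Alcam and Cd34 lay below every Ctl MSC point, whereas Cd44 and Cd9 were high in Ctl MSC 1, MSC-TPr 2 and MSC-TPr 3.

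Nt5e, the adenosine-producing enzyme CD73, was lower in the MSC-TPr libraries by a similar factor in all the fits made. The gene lies at chr9:88327197-88372092 (mm10, plus strand). It reached 11.4, 20.2 and 17.4 CPM among the controls (188, 379 and 316 reads), against 2.66, 4.2 and 5.24 CPM among the MSC-TPr libraries (48, 71 and 113 reads). The lowest control, Ctl MSC 1 with a 95% Poisson interval of 9.79 to 13.1 CPM, was above the highest MSC-TPr library with 4.32 to 6.3 CPM. The means were 16.3 ± 4.54 and 4.03 ± 1.3 CPM (SD, n = 3), a 4.04-fold difference with a log2 fold change of -2.02 ± 0.35 (SE). It missed the edgeR threshold (adjusted p = 0.079), and DESeq2 called it (adjusted p = 2.09e-05). Without the libraries numbered 1 the log2 fold change was -1.99 ± 0.188 (edgeR adjusted p = 0.00081), and the ratio of the groups was 4.27-fold between the libraries numbered 1 and 3.99-fold between those numbered 2 and 3. Leaving out any single library gave -2.25 to -1.79 with edgeR adjusted p of 0.0533 to 0.323.

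Alcam, the adhesion molecule CD166 that binds CD6 on T cells, was also lower in MSC-TPr, but with a control library near the MSC-TPr range. The gene lies at chr16:52248996-52454074 (mm10, minus strand). It reached 2.54, 12.4 and 13.5 CPM among the controls (42, 232 and 245 reads), against 1.55, 1.66 and 2.18 CPM among the MSC-TPr libraries (28, 28 and 47 reads). The interval of Ctl MSC 1 (1.83 to 3.43 CPM) overlapped that of MSC-TPr 3 (1.6 to 2.9 CPM), so the gap between the groups was within counting error for this pair. The means were 9.48 ± 6.04 and 1.8 ± 0.337 CPM (SD, n = 3), a 5.26-fold difference with a log2 difference of -2.39 ± 0.624 (SE, edgeR adjusted p = 0.182, DESeq2 adjusted p = 0.00565). Without Ctl MSC 1 it was called (-2.84, edgeR adjusted p = 0.021), and without both libraries numbered 1 the log2 fold change was -2.74 ± 0.212 (edgeR adjusted p = 0.000414). Between the libraries numbered 1 the difference was 1.64-fold, and between the means of those numbered 2 and 3 it was 6.75-fold.

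Cd34 had the widest range of the panel and a fold change that depended on the libraries numbered 1. The gene lies at chr1:194938819-194961279 (mm10, plus strand), and Gm16897 on the opposite strand, which shares exonic bases with it, had at most 1 read. It reached 43.5, 8.76 and 8.99 CPM among the controls (720, 164 and 163 reads), against 0.664, 5.21 and 3.9 CPM among the MSC-TPr libraries (12, 88 and 84 reads). Ctl MSC 1 held the highest value and MSC-TPr 1 the lowest, a 65.5-fold difference, while the libraries numbered 2 and 3 differed 1.95-fold between the groups. The means were 20.4 ± 20 and 3.26 ± 2.34 CPM (SD, n = 3), with a log2 difference of -2.65 ± 0.932 (SE, edgeR adjusted p = 0.265, DESeq2 adjusted p = 0.0342). It was -1.44 without Ctl MSC 1 and -0.97 ± 0.207 without both libraries numbered 1 (edgeR adjusted p = 0.0123). Of the 12 endothelial markers, 3 were tested, namely Vwf with 8 to 386 reads, the highest in MSC-TPr 1 where Cd34 was lowest, Kdr with 9 to 54 and Egfl7 with 21 to 49. Among those not tested, Tek had at most 6 reads and Pecam1 and Esam at most 4. The remaining 6 never exceeded 3 reads, and 3 of these were at 0. The defining markers Pecam1 and Cdh5 had 0 to 4 reads and the haematopoietic marker Ptprc 0 to 2. The part of such cells in the Cd34 values was not tested.

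The promoters of these 3 genes differed in base composition. The 250 bases before the RefSeq start of each gene are shown because these are the members whose groups did not overlap (GRCm38.p6, 5′ to 3′ on the strand of the gene; the Nt5e and Alcam starts lie inside the longer gene models of the mm10 annotation). Capitals mark every match on either strand to 5 motifs, and matches may overlap. The motif searched for the GC box was GGGCGG. For the TATA box the letters were TATAAA, for AP-1 sites TGACTCA, and for the CHR element known from cell cycle genes TTTGAA. The remaining motif is the CCAAT box, searched by the letters of its name. The Nt5e window is chr9:88327359-88327608 (+), the Alcam window chr16:52453082-52453331 (-) and the Cd34 window chr1:194938571-194938820 (+).
Nt5e: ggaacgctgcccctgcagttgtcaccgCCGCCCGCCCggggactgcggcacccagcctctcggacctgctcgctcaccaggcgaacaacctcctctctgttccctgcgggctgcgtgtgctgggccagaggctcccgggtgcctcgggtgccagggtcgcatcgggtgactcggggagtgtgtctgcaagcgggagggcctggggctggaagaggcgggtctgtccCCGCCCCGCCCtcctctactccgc
Alcam: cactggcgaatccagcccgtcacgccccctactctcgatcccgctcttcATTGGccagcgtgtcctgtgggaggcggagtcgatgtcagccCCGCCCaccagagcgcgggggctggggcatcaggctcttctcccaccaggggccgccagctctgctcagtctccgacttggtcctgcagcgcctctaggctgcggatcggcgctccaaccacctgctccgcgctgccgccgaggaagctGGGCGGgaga
Cd34: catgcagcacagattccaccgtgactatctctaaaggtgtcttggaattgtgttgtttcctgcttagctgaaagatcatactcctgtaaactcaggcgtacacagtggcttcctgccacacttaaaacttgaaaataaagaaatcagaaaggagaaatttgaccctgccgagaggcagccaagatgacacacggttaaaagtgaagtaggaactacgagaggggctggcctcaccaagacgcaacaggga
The Nt5e window had 72% GC and 21 CpG, and its 4 GC boxes formed 2 overlapping pairs on the reverse strand. The Alcam window had 69.2% GC and 22 CpG, with 2 GC boxes and 1 CCAAT box. The Cd34 window had 46.4% GC and 6 CpG and held none of the motifs. The medians over all 32851 windows were 52.4% GC and 6 CpG, and 32.7% of the windows held a GC box, 33.8% a CCAAT box, 12.4% a TATA box, 4.46% an AP-1 site and 16% a CHR element.

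Cd44 and Cd9 varied together between libraries and did not follow the labels. They lie on different chromosomes, at chr2:102811141-102901665 and chr6:125460266-125494791 (mm10, both on the minus strand). Cd44, the hyaluronan receptor, reached 536, 144 and 142 CPM among the controls, against 205, 519 and 532 CPM among the MSC-TPr libraries. Cd9, a tetraspanin that organises adhesion and fusion proteins in the membrane, reached 451, 122 and 130 CPM among the controls, against 144, 414 and 409 CPM among the MSC-TPr libraries. Both were high in Ctl MSC 1, MSC-TPr 2 and MSC-TPr 3, and the groups overlapped. The ratio of Cd44 to Cd9 in CPM stayed between 1.09 and 1.43 in the 6 libraries, although each gene varied 3.7-fold or more. The means were 274 ± 227 and 419 ± 185 CPM for Cd44 and 234 ± 188 and 322 ± 155 CPM for Cd9 (SD, n = 3 per group). The log2 fold changes of 0.61 ± 0.628 and 0.46 ± 0.632 (SE) were no larger than their errors (edgeR adjusted p = 0.698 and 0.785). Without the libraries numbered 1 they were 1.88 ± 0.115 and 1.71 ± 0.116 (edgeR adjusted p = 0.000205 and 0.000279), that is 3.68-fold and 3.26-fold higher in MSC-TPr 2 and 3. The libraries numbered 1 differed in the opposite direction, since Ctl MSC 1 exceeded MSC-TPr 1 by 2.61-fold for Cd44 and 3.14-fold for Cd9. Leaving out Ctl MSC 1 alone gave 1.55 for Cd44 and 1.36 for Cd9, neither of which was called. The cell division genes were high in the same 3 libraries (mean log2 CPM of 6.40 to 6.51 against 3.18 to 3.23), and their part in the result was not tested.

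The windows of these 2 genes are shown because their levels moved together (same build, orientation and marking). The Cd44 window is chr2:102901666-102901915 (-) and the Cd9 window chr6:125494761-125495010 (-).
Cd44: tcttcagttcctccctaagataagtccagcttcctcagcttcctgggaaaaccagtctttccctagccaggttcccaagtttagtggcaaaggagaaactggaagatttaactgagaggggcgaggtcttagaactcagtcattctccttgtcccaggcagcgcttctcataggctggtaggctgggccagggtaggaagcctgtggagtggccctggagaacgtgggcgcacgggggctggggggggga
Cd9: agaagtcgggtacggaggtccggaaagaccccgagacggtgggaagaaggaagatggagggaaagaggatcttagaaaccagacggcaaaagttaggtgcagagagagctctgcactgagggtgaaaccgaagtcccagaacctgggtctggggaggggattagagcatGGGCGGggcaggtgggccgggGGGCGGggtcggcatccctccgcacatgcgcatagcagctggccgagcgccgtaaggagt
The Cd44 window had 56.4% GC and 5 CpG and held none of the motifs searched. The Cd9 window had 61.6% GC and 16 CpG, with 2 GC boxes on the given strand. Neither held a CHR element, which only 16% of all windows held, and no motif searched was found in both.

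**Figure D4:**
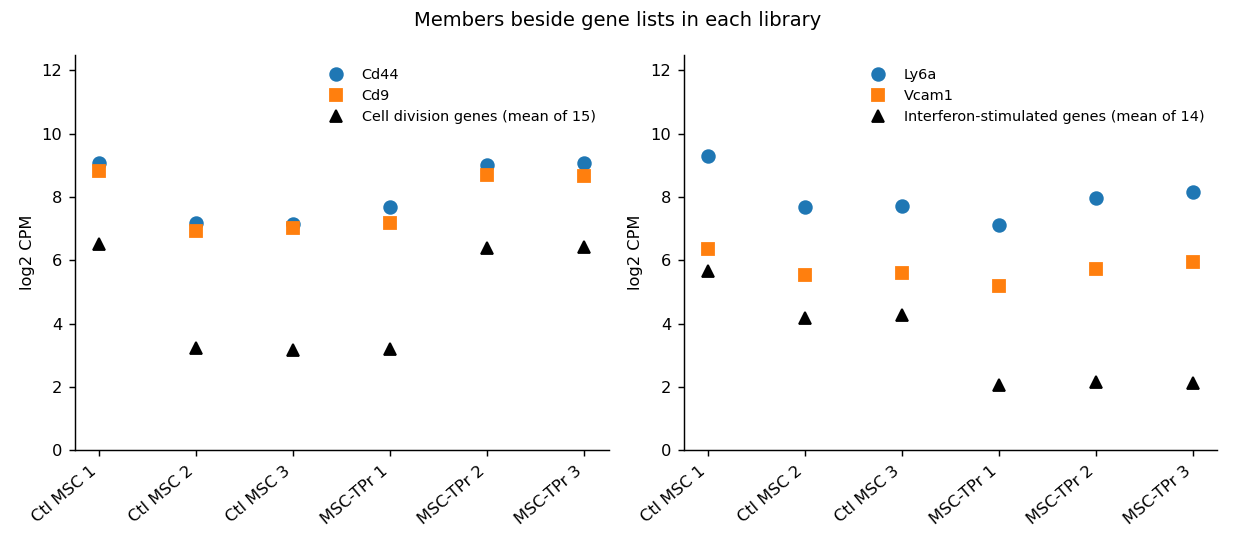
Log2 CPM in each of the 6 libraries of Cd44 and Cd9 beside the mean of 15 cell division genes (left) and of Ly6a and Vcam1 beside the mean of 14 interferon-stimulated genes (right). The cell division mean was above 6 in Ctl MSC 1, MSC-TPr 2 and MSC-TPr 3, where Cd44 and Cd9 were high, and the interferon mean was highest in Ctl MSC 1, as were Ly6a and Vcam1.

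Ly6a and Vcam1 were highest in Ctl MSC 1 and lowest in MSC-TPr 1, and changed sign with the libraries used. They lie at chr15:74994877-74998031 and chr3:116109949-116129688 (mm10, both on the minus strand). Ly6a, the Sca-1 antigen, reached 630, 204 and 210 CPM among the controls, against 138, 251 and 285 CPM among the MSC-TPr libraries. Vcam1, a ligand of leukocyte integrins that holds blood cells to marrow stroma, reached 82.7, 46.7 and 47.9 CPM among the controls, against 36.2, 53.4 and 61.1 CPM among the MSC-TPr libraries. In both genes MSC-TPr 2 and 3 lay between Ctl MSC 1 and the other controls, and the groups overlapped. The means of Ly6a were 348 ± 244 and 225 ± 76.7 CPM and those of Vcam1 59.1 ± 20.5 and 50.2 ± 12.7 CPM (SD, n = 3 per group). The log2 fold changes were -0.63 ± 0.514 for Ly6a and -0.23 ± 0.303 for Vcam1 (SE, edgeR adjusted p = 0.614 and 0.768). Without Ctl MSC 1 they were 0.12 and 0.09. Without both libraries numbered 1 they were 0.37 ± 0.122 for Ly6a and 0.28 ± 0.123 for Vcam1 (edgeR adjusted p = 0.0491 and 0.111), and neither reached the fold required for a call. Ly6a is itself known to respond to interferon. The interferon-stimulated genes averaged 5.65, 4.19 and 4.27 log2 CPM among the controls, against 2.07, 2.14 and 2.11 among the MSC-TPr libraries. All 14 of them that were tested were lower in every MSC-TPr library, beside 12.1% of all genes. Over all 6 libraries edgeR called 4 lower (Rsad2, Oasl2, Ifi44 and Usp18), beside 0.426% of genes called in either direction. The median log2 fold change was -2.83. DESeq2 called 15 of the 15 listed lower, beside 3.24% of genes. Without the libraries numbered 1, edgeR called 14 lower, beside 19.4% of genes, with a median of -2.14. Ly6a and Vcam1 thus shared the high Ctl MSC 1 value with this list and not the low values of MSC-TPr 2 and 3, and the part of the list in either result was not tested.

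Ly6a was one of a few Ly6 genes read in these cells. Of the 13 related Ly6 and Lypd genes in the table, 3 passed the filter and 6 never exceeded 3 reads. Over all 6 libraries edgeR called 0 of the 3 (0 had an unadjusted p under 0.05, and DESeq2 called 0), with a median log2 fold change of -0.26, and without the libraries numbered 1 it called 3 higher, beside 20.6% of genes, with a median of 1.15. Ly6e reached 389, 160 and 179 CPM among the controls, against 118, 247 and 244 CPM among the MSC-TPr libraries. Ly6c1 reached 191, 34.3 and 36.7 CPM and 30.3, 84 and 90.8 CPM in the same order. Both had their highest value in Ctl MSC 1 and their lowest in MSC-TPr 1, as Ly6a did. Lynx1, the third, did not, at 21.6, 8.6 and 9.93 CPM among the controls, against 13.1, 15.1 and 25.7 CPM among the MSC-TPr libraries. Ly6 genes are similar in sequence, and reads listed as not unique (5.89% to 8.92% per library) were counted on no gene, so reads that these genes share may be missing from each of them. Ly6e, Ly6c1 and Lynx1 were chosen for mention after their values were seen.

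Eng, at chr2:32646595-32682669 (mm10, plus strand), had the smallest range of the members tested. Endoglin transcripts reached 142, 158 and 159 CPM among the controls, against 159, 179 and 204 CPM among the MSC-TPr libraries, a 1.44-fold range over the 6 libraries. The groups met at their edges, where Ctl MSC 3 was marginally above MSC-TPr 1. The means were 153 ± 9.73 and 181 ± 23 CPM (SD, n = 3), with a log2 difference of 0.24 ± 0.154 (SE, edgeR adjusted p = 0.512), and 0.28 ± 0.121 without the libraries numbered 1 (edgeR adjusted p = 0.107). Exons of Eng overlap those of Fpgs on the opposite strand, and the strand setting of the counting is not given in the sources used here. The Nt5e CPM was 0.0802 to 0.128 of the Eng CPM among the controls and 0.0168 to 0.0256 of it among the MSC-TPr libraries. Because Eng varied so little, this ratio restates the Nt5e values and adds no support to them.

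Mcam and Thy1, which lie 85889 bases apart on chromosome 9 (mm10, Thy1 at chr9:44043384-44048579 and Mcam at chr9:44134469-44142727, both on the plus strand), were at or near the lower end of the panel. Mcam, the CD146 antigen of perivascular stromal cells, reached 3.14, 1.39 and 1.32 CPM among the controls (52, 26 and 24 reads), against 0.941, 5.62 and 9.09 CPM among the MSC-TPr libraries (17, 95 and 196 reads). MSC-TPr 2 and 3 were the highest and MSC-TPr 1 was the lowest of all, so the groups overlapped. The means were 1.95 ± 1.03 and 5.22 ± 4.09 CPM (SD, n = 3), with a log2 difference of 1.42 ± 0.792 (SE, edgeR adjusted p = 0.453). Without the libraries numbered 1 it was 2.44 ± 0.315 (edgeR adjusted p = 0.00224), 5.42-fold higher in MSC-TPr 2 and 3. Of 8 pericyte and smooth muscle markers 2 were tested, and 3 never exceeded 3 reads. One of the 2, Notch3, was above every control in each MSC-TPr library, at 0.725, 1.87 and 1.54 CPM among the controls, against 4.48, 2.66 and 10.7 CPM among the MSC-TPr libraries (edgeR adjusted p = 0.209). The other, Cnn1, chosen for mention after its values were seen, had 29.5, 4.38 and 5.41 CPM, against 0.72, 42.5 and 51.7 CPM, so that its groups overlapped and MSC-TPr 1 was the lowest, as for Mcam (edgeR adjusted p = 0.703). Both were called higher without the libraries numbered 1, beside 20.6% of all genes. Over all 6 libraries, 22.6% of all genes tested were without overlap, as Notch3 was. On the same libraries DESeq2 called 1 of the 8 markers higher and 0 lower, beside 239 and 430 of all genes. The part of such cells in the Mcam values was not tested.

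Thy1, the CD90 antigen, was essentially unread. A single read was counted in Ctl MSC 1 (0.0604 CPM) and 0 in the other 5 libraries, below the 3-read limit of 0.139 to 0.181 CPM. No fold change can be given, and a difference between the groups was not detectable at this depth. No exon of another gene overlaps Thy1 in the annotation.

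Genes around the antigens were described from lists written with earlier results of these data known. Of 25 other surface proteins used on stromal cells, 18 were tested. Over all 6 libraries edgeR called 0 of them, and 2 were higher and 4 lower in every MSC-TPr library. DESeq2 called 1 gene of this list higher and 2 lower, beside 239 and 430 of all genes. Of all genes tested, 0.426% were called, 22.6% were without overlap, and 12.1% were without overlap and lower. The median log2 fold change of the list was -0.19. Without the libraries numbered 1 it was 0.30, with 6 called higher and 3 lower, beside 20.6% and 19.4% of all genes. The most abundant tested gene of this list without overlap was Bst2, an interferon-inducible tether of viruses (log2 fold change -1.65 ± 0.266 SE, edgeR adjusted p = 0.0739). It reached 201, 137 and 149 CPM among the controls, against 68.9, 47.1 and 39.5 CPM among the MSC-TPr libraries. Cd81, a tetraspanin partner of Cd9, reached 81.4, 52.4 and 55.7 CPM among the controls, against 85, 93.6 and 97.7 CPM among the MSC-TPr libraries (0.54 ± 0.206, edgeR adjusted p = 0.29). Cd82, another tetraspanin, reached 20.7, 15 and 15.7 CPM and 7.36, 8.05 and 9.93 CPM (-1.02 ± 0.228, edgeR adjusted p = 0.136). Cd81 and Cd82 lay without overlap on opposite sides, for Cd81 only by the narrow gap from Ctl MSC 1 to MSC-TPr 1. The tetraspanins Cd151 and Cd63 of the same list had overlapping groups (0.49 and -0.00), and were chosen for mention after their values were seen. Cd24a, a small lipid-anchored glycoprotein, was also lower in every MSC-TPr library (-0.79 ± 0.22, edgeR adjusted p = 0.195). Podxl, a sialomucin related to Cd34, was higher in every one (2.32 ± 0.462, edgeR adjusted p = 0.107). It had 0.181 to 0.481 CPM in controls (3, 9 and 8 reads), against 1.39 to 2.25 CPM in MSC-TPr libraries (36, 38 and 30 reads). Its control values were thus at or near the 3-read limit. In the fit that left out the libraries numbered 1, Bst2 and Cd82 were called lower and Cd81 and Podxl higher, and Cd24a was not called.

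For Nt5e, 9 of 15 genes that make, sense or remove adenosine were tested. Over all 6 libraries edgeR called none of the 9, and the median log2 fold change was 0.84. DESeq2 called 1 gene of this list higher and 0 lower, beside 239 and 430 of all genes. An unadjusted p under 0.05 (edgeR) was found for 4 of them, beside 1801 of the 11974 genes tested. In every MSC-TPr library 2 were higher, where 22.6% of all genes were without overlap in either direction. Without the libraries numbered 1, 10 were tested, 9 were called higher and 0 lower, beside 20.6% of all genes called higher, with a median of 2.13. Ada, which breaks adenosine down, was the exception (-0.02), and it was chosen for mention after its values were seen. Adora2a, an adenosine receptor, reached 0.423, 0.267 and 0.276 CPM among the controls (7, 5 and 5 reads, near the 3-read limit). Among the MSC-TPr libraries it reached 1.22, 2.37 and 2.92 CPM (22, 40 and 63 reads, log2 fold change 2.74 ± 0.477 SE, edgeR adjusted p = 0.0796). Slc29a2, a nucleoside transporter, reached 3.87, 3.42 and 3.2 CPM and 4.48, 8.16 and 6.03 CPM (0.83 ± 0.294, edgeR adjusted p = 0.266). Both were higher in every MSC-TPr library, and both were among the 9.

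For Eng, 16 of 17 receptors, Smads and target genes of the TGF-β and BMP pathways were tested. Over all 6 libraries edgeR called 0 of these, while DESeq2 called 0 higher and 1 lower, beside 239 and 430 of all genes. An unadjusted p under 0.05 (edgeR) was found for 6, beside 1801 of the 11974 genes tested. In every MSC-TPr library 2 were higher and 6 lower, where 22.6% of all genes were without overlap and 12.1% without overlap and lower. The median log2 fold change was -0.19. Without the libraries numbered 1 it was -0.47, with 1 called higher and 4 lower, beside 20.6% and 19.4% of all genes. Tgfbr2, the receptor that binds TGF-β, reached 192, 149 and 152 CPM among the controls, against 88.8, 77.8 and 108 CPM among the MSC-TPr libraries (-0.85 ± 0.187 SE, edgeR adjusted p = 0.132). Id3, a target gene of BMP signals, reached 81.7, 31.1 and 33.3 CPM and 8.3, 17.7 and 27 CPM (-1.46 ± 0.547, edgeR adjusted p = 0.285), and Id2 had -1.68 ± 0.555 (edgeR adjusted p = 0.243). These shrank, when the libraries numbered 1 were left out, to -0.52 for Id3 and -0.87 for Id2, neither of which was called (edgeR adjusted p = 0.0868 and 0.106), while Tgfbr2 was called lower at -0.70. Id1, from the same list, went the other way, at 0.54 ± 0.477 with overlapping groups (edgeR adjusted p = 0.645). Without the libraries numbered 1 Id1 was the gene called higher, at 1.36 (edgeR adjusted p = 0.00636). Id1 was chosen for mention after its values were seen. The signal transducers Smad5 and Smad2 were lower in every MSC-TPr library by smaller amounts (-0.41 ± 0.169 and -0.29 ± 0.131, edgeR adjusted p = 0.328 and 0.366), and without the libraries numbered 1 Smad5 was called lower (-0.54) and Smad2 was not (-0.37). Acvrl1, the receptor with which endoglin works in endothelial cells, had 1 read in Ctl MSC 1 and 0 elsewhere, and it was chosen for mention after its values were seen.

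For Cd44, 11 of 14 genes of hyaluronan synthesis, breakdown and CD44 partners were tested. Over all 6 libraries edgeR called 0, with a median log2 fold change of 0.36. DESeq2 called 1 gene of this list higher and 0 lower, beside 239 and 430 of all genes. In every MSC-TPr library 1 was higher and 1 lower, where 22.6% of all genes were without overlap. Without the libraries numbered 1 the median was 1.02, with 7 called higher and 1 lower, beside 20.6% and 19.4% of all genes. Msn, the cytoskeletal linker moesin, reached 671, 624 and 618 CPM among the controls, against 831, 1080 and 935 CPM among the MSC-TPr libraries (0.57 ± 0.167 SE, edgeR adjusted p = 0.207). Hyal1, a hyaluronidase, reached 4.77, 9.93 and 9.98 CPM and 4.48, 2.01 and 3.11 CPM (-1.36 ± 0.424, edgeR adjusted p = 0.224). For Cd9, 12 of 15 other tetraspanins and partners were tested. Over all 6 libraries edgeR called 0, with a median of 0.06, and DESeq2 called 1 higher and 0 lower, beside the same 239 and 430 genes. In every MSC-TPr library 1 was higher and 2 lower, beside the same 22.6% of all genes without overlap. Without the libraries numbered 1 the median was 0.20, with 4 called higher and 1 lower, beside the same 20.6% and 19.4%. Igsf8, a partner of Cd9 and Cd81, reached 16.2, 10.1 and 10.4 CPM among the controls, against 21.8, 27.5 and 31.5 CPM among the MSC-TPr libraries (1.14 ± 0.266, edgeR adjusted p = 0.148), while Tspan14 and Tspan5 were lower in every MSC-TPr library (-0.38 ± 0.151 and -0.25 ± 0.16, edgeR adjusted p = 0.309 and 0.509). When the libraries numbered 1 were left out, Msn and Igsf8 were called higher and Hyal1 lower, and Tspan14 and Tspan5 were not called.

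Finally, each member was set against 10822 other genes for the likeness of its log2 CPM over the 6 libraries, as a description in which all points share the same libraries, depth and scaling. Cd44 was most like Ccne1 (cyclin E, Pearson r = 0.9991) and Cd9 most like Pitpna (a lipid transfer protein, r = 0.9994), and these patterns were common, since 634 and 737 genes had r above 0.95. Nt5e was most like Pgr (the progesterone receptor, r = 0.9985), which reached 89.3, 201 and 191 CPM among the controls, against 8.91, 17.3 and 23.5 CPM among the MSC-TPr libraries, and 94 genes had r above 0.95. Alcam was most like Ccser1 (r = 0.9978, 92 genes above 0.95) and Cd34 most like Kctd10 (r = 0.9963, 102 genes). Vcam1 was most like Psmb8 (r = 0.9986, 200 genes), the gene of an immunoproteasome subunit, which reached 13.8, 4.49 and 4.74 CPM among the controls, against 2.6, 5.74 and 8.12 CPM among the MSC-TPr libraries. Ly6a was most like Fam115c (r = 0.9976, 136 genes), Mcam most like Mcph1 (r = 0.9978, 173 genes) and Eng most like Ppp6r3 (r = 0.9979, 30 genes). The level of the most alike gene is not the level of the member, and likeness over 6 libraries says nothing of shared control.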

How the data were processed

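Reads were base-called, trimmed and aligned to the mouse genome (mm10) by the authors with CASAVA 1.8.2, Trimmomatic 0.35 and TopHat2 2.1.0, per the submitters' processing notes, and counted on genes with Htseq-count. The authors deposited raw read counts for 23420 genes by symbol. The annotation and strand setting are not given in the sources used here. The 5 rows that name no gene were left out of all totals, which left 79.2% to 86.2% of the listed reads (6.86% to 10.9% had no feature and 5.89% to 8.92% were not unique). Depth was 16158756 to 22158887 reads per library.

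The quasi-likelihood test of edgeR 4.0.16 (R 4.3.3) was run on these counts with TMM scaling and the filterByExpr filter, the model held no term but the group, and p-values were adjusted by Benjamini-Hochberg over all 11974 genes tested. Calls needed an adjusted p under 0.05 together with a change of 0.5 or more on the log2 scale. The SE is the size of the log2 fold change divided by the square root of F. CPM uses TMM-scaled library sizes. RPKM uses the union of exons of the GENCODE M21 annotation (mm10), in which 21740 symbols were matched. Intervals and the 3-read limit cover counting error only. No pair of libraries within a group agreed within sampling noise, so all 6 were kept. Ctl MSC 2 and 3 were the closest, with a chi-square per gene of 4.97, against 52.6 for MSC-TPr 2 and 3. Pairs with a library numbered 1 had 162 to 201. The fit without the libraries numbered 1 rests on the 2 closer pairs, so its errors reflect the spread within them. The labels do not say that libraries came from separate cultures, so p-values measure only the spread between these libraries, which may be technical. Replicate numbers come from the labels, and the groups were taken from the labelled condition.

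Promoter sequences are from RefSeq (GRCm38.p6), which had a window for 7 of the 10 members. The fits were also run on simulated data with independent libraries and the same dispersion for every gene. No simulated library stood apart as those numbered 1 did, so that run cannot test the calls made here. The members and lists were chosen with earlier results of these data known. Besides the members, the genes named by rule are those called in a list, the 3 with the highest mean CPM or largest fold change among those whose groups do not overlap, the defining markers, the transduced genes and the most alike gene of each member (tested genes with a mean log2 CPM of at least 1). Other genes of the lists, among them Lum, Cd14, Vwf, Kdr, Egfl7, Tek and Esam, were chosen for mention after their values were seen. Alternatives were DESeq2 1.42.0, RLE and upper quartile scaling, other filters, no fold threshold, a replicate block, leaving out each library, leaving out both libraries numbered 1, and transcript length in place of exon length.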

Additional observations from a re-analysis of the deposited data

How the results depend on the processing

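Over all 6 libraries edgeR called 3 genes higher and 48 lower in MSC-TPr and 0 members. DESeq2 called 239 higher and 430 lower, with 3 members, and a minimum of 10 counts in every library gave 29 lower. Leaving out both libraries numbered 1 gave 2498 higher and 2356 lower (40% of genes) and 6 members called. The common dispersion of that fit was 0.0168 against 0.124. Its groups did not overlap in 9 members, against 3 members over all 6 libraries. Smaller groups separate more easily, and the share of all genes without overlap was not computed for them, so these counts are not comparable. Leaving out each library in turn gave 0 to 11 genes higher, 0 to 105 lower and 0 to 1 member called (Alcam, without Ctl MSC 1). It gave 3 to 5 members without overlap, also without a share over all genes. The log2 fold change of Ly6a ranged from -0.90 to 0.12 and that of Vcam1 from -0.39 to 0.09 over these fits, positive only without Ctl MSC 1, and they were 0.37 and 0.28 without both libraries numbered 1. The cause was not tested.

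With a replicate block, 0 genes were called higher and 0 lower, with 776 genes at an unadjusted p under 0.05 against 1801 without it. Deviations of same-numbered libraries correlated at -0.765, -0.594 and -0.604. The libraries numbered 1 lay on opposite sides of the first principal component, at -40.95 (Ctl MSC 1) and 40.5 (MSC-TPr 1). That contrast alone can make all these correlations negative, so they cannot show whether the numbers pair the libraries. No member was called with the block. Among the alternative fits of a member's fold change, 103 kept their direction and side of the threshold, 10 passed it and 4 reversed. RLE and upper quartile scaling, no filter and no fold threshold changed no call of a member. The order of the members by level per length was the same for 10 of 10 places with transcript length, and for 6 of 10 without the libraries numbered 1. At this depth Thy1 is limited by counting error. For Mcam some libraries of a group differed by more than counting error. Its 95% Poisson interval was 0.548 to 1.51 CPM in MSC-TPr 1 and 7.86 to 10.5 CPM in MSC-TPr 3.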

Other observations

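The marker lists of the lineages into which MSCs differentiate mixed genes with many reads and genes hardly read. For each of the osteoblast, adipocyte and chondrocyte lists 2 of 6 genes were tested, and 2, 4 and 2 genes never exceeded 3 reads. Over all 6 libraries edgeR called 0 in each list, beside 0.426% of all genes, and DESeq2 called 0. Without the libraries numbered 1 edgeR also called 0, beside 40% of all genes. So few genes tested allow no reading of these lists. The adipocyte genes Fabp4 and Pparg had their highest values in Ctl MSC 1 (126 and 78.7 CPM) and their lowest in MSC-TPr 1 (13.2 and 11.2 CPM), the same extremes as Ly6a, Vcam1 and Cd34 among the antigens. The osteoblast regulator Runx2 was at 39.5 to 41.5 CPM in Ctl MSC and 43.1 to 58.8 CPM in MSC-TPr (log2 fold change 0.28 ± 0.168 SE, edgeR adjusted p = 0.482). Its groups did not overlap, where 22.6% of all genes tested were without overlap. The late osteoblast genes Bglap and Ibsp had at most 1 read. The chondrocyte gene Sox9 had 57.6, 35 and 32.4 CPM among the controls, against 36.3, 49.7 and 35.7 CPM among the MSC-TPr libraries. Col2a1, from the same list, had 9.91, 0.801 and 1.16 CPM, against 0.0554, 0.592 and 2.23 CPM. Vwf, an endothelial marker, had 21.4 CPM in MSC-TPr 1 and 0.483 to 3.36 CPM elsewhere. All of these but Runx2 were chosen for mention after their values were seen. The 10 surface antigens together took 0.195%, 0.0734% and 0.0737% of the reads on genes among the controls numbered 1 to 3, against 0.0696%, 0.137% and 0.147% among the MSC-TPr libraries.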
